A study of Mus musculus with 2 samples.

Results

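Actb encodes beta-actin, 1 of the 2 cytoplasmic actins of vertebrate cells. The 6 genes described here were Actb, its close relative Actg1 as a comparison gene, and 4 companions, Slc39a1, Ccdc85c, Amt and D17H6S53E. They were chosen on measured values, because Actb and the 4 companions had high levels in the retinal endothelial cells that the study labelled Stalk and moved with Actb from cell to cell. The levels, ratios and correlations below therefore describe the choice and test nothing. All 6 genes had a row in both libraries, among 22734 gene identifiers at postnatal day (P)6 and 21785 at P15.

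The data were 2 single-cell libraries of retinal endothelial cells from wild-type C57BL/6 mice, 1 library from P6 and 1 from P15, with no transgene or treatment named for either. Cells were sorted by flow cytometry as positive for CD31 and negative for CD45, which selects endothelial cells and removes leukocytes, and were captured in droplets. The labels did not say how many animals entered a library. With 1 library per age there was no replicate, so age and library cannot be told apart, and every interval given is a 95% interval that covers counting error only. The counted unit was the unique molecular identifier (UMI), a tag that marks 1 captured mRNA molecule. Levels are counts per 1000000 (CPM), the UMIs of a gene among 1000000 UMIs of the same cells. They were compared for 1 gene between groups of cells. Counts of different genes were set against each other only for Actb and Actg1 within the same cells.

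Actin monomers assemble into filaments that carry cell shape, junction tension and migration. Beta-actin and gamma-actin, the products of Actb and Actg1, are nearly identical proteins made from separate genes, and Actb is a classic target of serum response factor (SRF), which binds a sequence called the CArG box. In sprouting vessels a tip cell leads and stalk cells follow and form the tube. Slc39a1 encodes ZIP1, a zinc importer of the plasma membrane. Ccdc85c encodes a coiled-coil protein found at cell junctions, and Amt encodes the aminomethyltransferase of the mitochondrial glycine cleavage system.

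The genes lie on 6 chromosomes and all are annotated as protein coding (GENCODE M21, GRCm38). Actb is at chr5:142903115-142906754 on the minus strand and Actg1 at chr11:120345690-120348542 on the minus strand. Slc39a1 is at chr3:90248172-90253612 (plus), Ccdc85c at chr12:108203602-108275425 (minus), Amt at chr9:108296853-108302302 (plus) and D17H6S53E at chr17:35126373-35128855 (plus). None of them is therefore a neighbour of another.

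Because the contrast between the 2 actins carries much of what follows, the first 45 coding bases of each are shown, with capitals at the 9 positions where they differ. They lie at chr5:142905642-142905686 and chr11:120348047-120348091 of GRCm38, both on the minus strand.
Actb: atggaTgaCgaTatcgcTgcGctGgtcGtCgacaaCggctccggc
Actg1: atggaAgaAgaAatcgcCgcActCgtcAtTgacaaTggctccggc
Over the whole coding sequence of 1128 bases the 2 mRNAs differed at 128 positions and were 88.7% identical. Stretches of 31 bases were then compared with every other annotated transcript. In the coding sequence 486 of the 1098 such stretches of Actb and all 1098 of Actg1 occurred in some other gene, and 106 were common to the pair. In the last 300 bases of the transcripts, none of the 270 stretches was common to the pair. Those last 300 bases of Actb shared 83 stretches with Gm4750, Gm8464 and Lrrc58, and those of Actg1, Slc39a1, Ccdc85c, Amt and D17H6S53E shared none with any other gene. In the coding sequences, 617 of the 945 stretches of Slc39a1 also occurred in the pseudogene Slc39a1-ps, and none of those of Ccdc85c, Amt and D17H6S53E occurred elsewhere. How reads shared between copies were assigned was not given in the sources used here.

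The 250 bases before the transcription start are shown for the companions with the highest correlation with Actb over P6 cells, and for the comparison gene Actg1 (RefSeq, GRCm38.p6, written 5′ to 3′ on the strand of the gene). Capitals mark CArG boxes and the letters CCAAT, or ATTGG on the other strand. The windows are chr3:90247942-90248191 (plus), chr12:108275394-108275643 (minus) and chr11:120348496-120348745 (minus). These RefSeq starts lie inside the GENCODE spans given above, so the last bases of each window fall within its annotated gene.
Slc39a1: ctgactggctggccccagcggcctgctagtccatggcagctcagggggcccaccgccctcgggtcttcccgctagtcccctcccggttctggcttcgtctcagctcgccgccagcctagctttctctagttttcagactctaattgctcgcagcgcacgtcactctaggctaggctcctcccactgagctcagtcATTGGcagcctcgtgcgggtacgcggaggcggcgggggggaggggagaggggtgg
Ccdc85c: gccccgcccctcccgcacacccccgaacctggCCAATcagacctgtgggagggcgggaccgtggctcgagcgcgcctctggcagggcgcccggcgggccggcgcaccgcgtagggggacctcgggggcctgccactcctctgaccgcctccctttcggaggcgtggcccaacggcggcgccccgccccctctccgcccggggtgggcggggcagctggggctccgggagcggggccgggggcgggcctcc
Actg1: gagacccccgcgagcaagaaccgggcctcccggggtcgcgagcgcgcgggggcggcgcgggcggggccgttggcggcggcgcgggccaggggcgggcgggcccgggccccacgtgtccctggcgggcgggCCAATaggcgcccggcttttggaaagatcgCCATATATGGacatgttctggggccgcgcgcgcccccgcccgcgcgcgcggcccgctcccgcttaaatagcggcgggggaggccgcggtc
Windows of 250 bases before to 50 after the start were searched on both strands for all genes. Of 32851 such windows, 1.63% held a CArG box. Actg1 held 1, starting 90 bases before the start, and the windows of Slc39a1, Ccdc85c, Amt and D17H6S53E held none, which says only that these letters were not in these windows. The letters CCAAT stood once in the windows of Slc39a1, Ccdc85c, Amt and Actg1 and not in that of D17H6S53E, beside 37.4% of all windows. The letters GGGCGG stood 6 times each in Ccdc85c and Actg1 and once each in Slc39a1, Amt and D17H6S53E, beside 35.7% of windows with at least 1. The table of start sites matched 5 of the 6 genes, all but Actb.

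At P6, 1560 of 1984 barcodes had a cluster label from the study and 230 of them were Stalk. At P15 the labels at hand covered 438 of 2141 barcodes, all among the first 539 in the alphabet, and 85 were Stalk. The other P15 cells that passed the cell filter, 1235 in number, are given as cells without a label. Since the labels at hand ended early in the alphabet, these cells can include cells of every cluster, Stalk among them. The libraries held 13958124 and 11589641 UMIs and shared 7 barcodes. The median depth of Stalk-labelled cells was 5449.5 UMIs at P6 and 3875 at P15, against 5346 and 4479 in the other labelled cells.

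The label was checked against marker genes. Of 6 stalk markers, Jag1 was higher in Stalk-labelled than in other labelled cells at both ages, 2.89-fold (2.62 to 3.18) at P6 and 2.85-fold (2.24 to 3.61) at P15. Hey1 was lower at P6 (0.262, 0.145 to 0.438), and Flt1, Hes1, Robo4 and Tie1 lay between 0.847 and 0.934. At P15 Hey1 stood at 1.33 (0.878 to 1.96) and those 4 between 0.857 and 1.18. Of the stalk markers Jag1 alone was thus past 1.5-fold higher, and the study counts Jag1 among arterial genes. Summed, the 6 stalk markers held 1792 CPM in Stalk at P6, below Arterial (3148), Cap-Arterial (2606), Capillary (2322) and Venous (1870). At P15 Stalk held 2613, below Cap-Arterial (3438), Arterial (3341), Capillary (3083) and the 2 Venous cells (2683). Tip, Cap-Venous, Proliferative and Primitive were lower at both ages. The group is therefore called by the label it carries. At P6 none of 6 tip markers was past 1.5-fold higher, and Esm1 (0.306, 0.173 to 0.505) and Cxcr4 (0.614, 0.418 to 0.875) were lower. Of all genes with at least 50 UMIs, 3.89% were past 1.5-fold higher and 10.5% lower at P6. At P15 these shares were 5.28% and 9.5%. Lists of 6 genes are too short to set against such shares. The 8 endothelial markers summed to 7395 CPM in Stalk-labelled cells and 7714 in the others at P6, and to 12706 and 12748 at P15. The 7 pericyte markers summed to 14.2 (8.70 to 21.996) against 7.40 (5.66 to 9.51) at P6, where Pdgfrb, Cspg4, Notch3 and Vtn were at 0 in Stalk-labelled cells, and to 342 (286 to 404) against 172 (153 to 192) at P15, led by Rgs5 with a ratio of 1.87. Across the 9 P15 clusters that sum ran from 40.7 in Arterial to 407 in Capillary cells. The smooth muscle markers summed to 0.712 against 0.971 at P6 and 5.06 against 6.30 at P15, and the leukocyte markers to 2.14 against 2.43 and 5.06 against 12.03. Muller glia and astrocyte markers summed to 206 against 359 and 1058 against 1143. Red blood cell markers summed to 16.4 against 23.3 and 223 against 166, and platelet markers to 46.3 against 46.2 and 25.3 against 28.6. The part of pericyte RNA in the levels below was not tested.

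Actb was higher in Stalk-labelled cells than in every other cluster at both ages. At P6 its level was 40056 CPM in Stalk, 10779 in Venous, 9786 in Proliferative, 8079 in Capillary, 7130.0 in Tip, 6696 in Primitive, 5865 in Arterial, 5274 in Cap-Arterial and 4871 in Cap-Venous cells. No 2 neighbours in this order had overlapping intervals. At P15 it was 27625 in Stalk, 7850.4 in Tip, 6789.5 in Proliferative, 5816 in Capillary, 4786 in Primitive, 4458 in Cap-Venous, 4299 in Arterial, 4174 in the 2 labelled Venous cells and 3934 in Cap-Arterial cells. From Primitive downwards the P15 neighbours overlapped. Stalk-labelled cells held 5.84 times (5.77 to 5.91) the level of all other labelled cells at P6, 40056 against 6858, and 5.35 times (5.20 to 5.50) at P15, 27625 against 5165.

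Actg1 showed no such step. At P6 it was highest in Tip cells, at 3723 CPM, and lowest in Capillary cells, at 2012. Between them lay Venous 2966, Arterial 2966, Proliferative 2824, Cap-Venous 2741, Primitive 2709, Cap-Arterial 2678 and Stalk 2637, and among these 7 each interval overlapped the next. At P15 it ran from 3124 in Proliferative through 3023 in Tip, 2792 in Primitive, 2295 in Cap-Venous, 2075 in Stalk, 2037 in Arterial, 1886 in Cap-Arterial and 1646 in Capillary to 1044 in the 2 Venous cells. Against all other labelled cells the Actg1 ratio of Stalk-labelled cells was 0.926 (0.894 to 0.959) at P6 and 0.872 (0.808 to 0.940) at P15, slightly lower at both ages. The median gene was slightly lower too, with a log2 ratio of -0.10 at P6 and -0.07 at P15. Sorted by ratio, Actg1 held place 5132 of 9834 genes at P6 and 3868 of 5833 at P15. The direction of the Actg1 ratio depended on the cells compared. Against Capillary cells it was 1.31 (1.22 to 1.40) and 1.26 (1.07 to 1.49), and against Tip cells 0.708 (0.677 to 0.741) and 0.686 (0.623 to 0.756).

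The 4 companions also peaked in Stalk-labelled cells at both ages. For Slc39a1, the zinc importer, the P6 level was 671 CPM in Stalk, 225 in Venous, 145 in Capillary, 142 in Arterial, 133 in Cap-Arterial, 124 in Proliferative, 92.9 in Tip, 76.3 in Cap-Venous and 67.9 in Primitive cells. At P15 it was 676 in Stalk, 306 in Arterial, 149 in Venous, 142 in Capillary, 106 in Tip, 105 in Primitive, 102 in Cap-Arterial, 68.1 in Cap-Venous and 64.1 in Proliferative cells. At both ages the Stalk interval stood apart from the next cluster, and all later neighbours overlapped. At P15 the interval of the 2 labelled Venous cells, 3.77 to 831 from 1 UMI, nevertheless spanned that of Stalk, 597 to 762. The ratio to other labelled cells was 6.45 (5.87 to 7.08) at P6 and 7.19 (5.90 to 8.79) at P15.

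Ccdc85c, the junction protein gene, had 216 CPM in Stalk at P6. The other clusters held 43.6 in Proliferative, 32.5 in Capillary, 28.6 in Tip, 26.3 in Cap-Venous, 25.5 in Primitive, 25.3 in Arterial, 21.1 in Venous and 20.3 in Cap-Arterial cells. Here too only Stalk stood apart from its neighbour. At P15 it had 144 in Stalk (57 UMIs), 24.6 in Tip, 18.9 in Capillary, 18.3 in Proliferative, 13.2 in Cap-Arterial and 9.17 in Cap-Venous cells, and no UMI in Primitive, Venous or Arterial cells, where a count of 0 allows up to 24.2, 447 and 61.1. The ratio to other labelled cells was 7.31 (6.16 to 8.69) at P6 and 11.4 (6.89 to 19.7) at P15.

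Amt and D17H6S53E were counted rarely. Amt, of the glycine cleavage system, had 96 UMIs in Stalk-labelled and 73 in all other labelled cells at P6, and 20 and 10 at P15. D17H6S53E had 89 and 86 at P6, and 29 and 10 at P15. For Amt that was 68.4 CPM in Stalk at P6, then 35.4 in Arterial, 17.6 in Venous, and 4.88 to 11.96 in the other clusters. For D17H6S53E it was 63.4 in Stalk, 35.4 in Arterial, 17.6 in Venous, and 2.12 to 16.1 elsewhere. Both genes were highest in Stalk, and both overlapped the small Arterial cluster of 40 cells. Their ratios to other labelled cells were 7.71 (5.63 to 10.6) and 6.07 (4.46 to 8.26) at P6. At P15 they were 8.83 (3.95 to 21.1) and 12.8 (6.07 to 29.5), with wide intervals. Amt had 50.6 CPM (30.9 to 78.1) in P15 Stalk, overlapping Arterial (20.4, 0.516 to 114) and Proliferative, Capillary and Venous, where it had no UMI. D17H6S53E had 73.4 (49.1 to 105) there, overlapping Proliferative (18.3, 2.22 to 66.2) and Arterial and Venous, where it had no UMI.

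**Figure D1:**
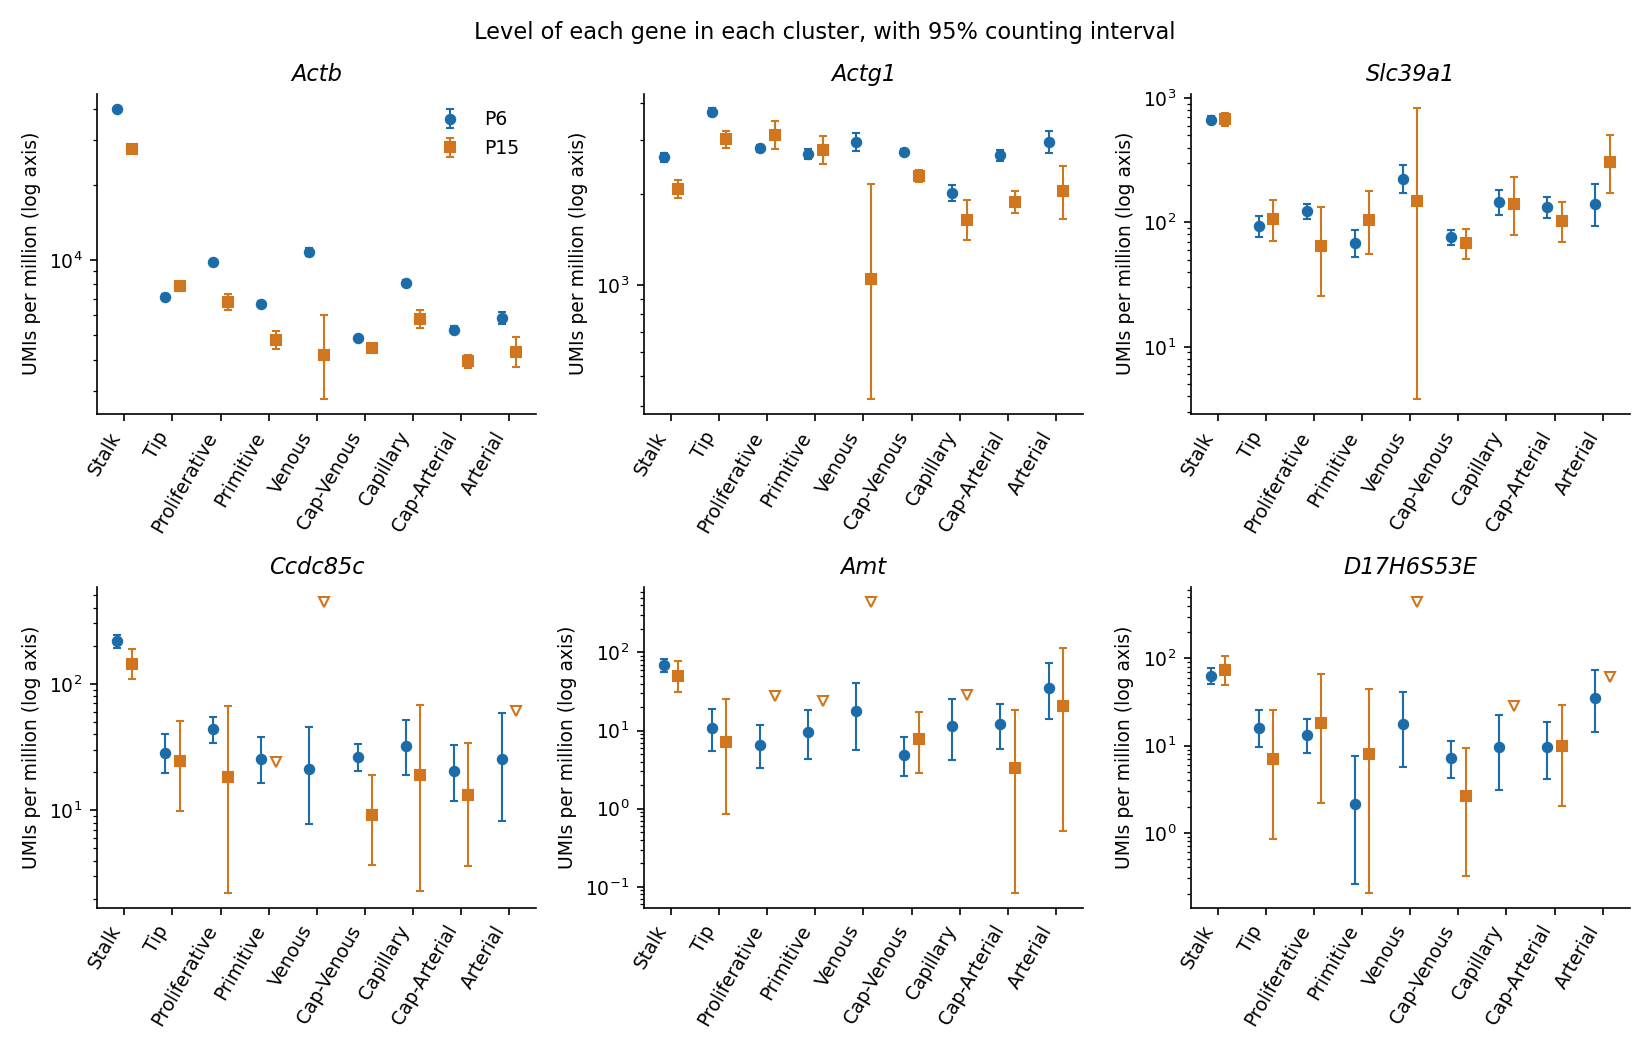
CPM on log axes for each of the 6 genes in the 9 clusters, P6 as circles and P15 as squares, bars giving the 95% Poisson interval and open triangles the level that a count of 0 allows. Actb reaches 40056 in P6 and 27625 in P15 Stalk cells and stays at or under 10779 elsewhere, the 4 companions peak in Stalk, and Actg1 does not.

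Among genes with at least 50 UMIs over labelled cells, 3.89% were past 1.5-fold higher in Stalk-labelled cells at P6 (383 of 9834) and 5.28% at P15 (308 of 5833), and 10.5% and 9.5% were past 1.5-fold lower. Actb and the 4 companions were past 1.5-fold at P6, which the choice of genes fixed, and Actg1 was not. Sorted by P6 ratio, Amt, Ccdc85c, Slc39a1, D17H6S53E and Actb held places 2 to 6 of the 9834 genes, behind Fn3krp, named after its value was seen, with 43 UMIs in Stalk-labelled and 32 in other cells. At P15 Ccdc85c, Slc39a1 and Actb held places 1, 2 and 4 of 5833, and Amt and D17H6S53E, with 30 and 39 UMIs, did not reach 50. The median gene had a log2 ratio of -0.10 at P6 and -0.07 at P15.

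The share of cells with at least 1 UMI gave the same direction for the companions. Slc39a1 was seen in 85.2% of Stalk-labelled cells (80.0 to 89.5) against 37.8% of others (35.2 to 40.5) at P6, and in 88.2% against 30.03% at P15. Ccdc85c was seen in 50% against 15.04% at P6 and 38.8% against 5.38% at P15. Amt was seen in 24.8% against 4.74% and 16.5% against 2.55%, and D17H6S53E in 21.3% against 5.26% and 23.5% against 2.27%. After each cell was thinned to 3000 UMIs, with 25 of 230 Stalk-labelled and 143 of 1330 other P6 cells too shallow to enter, the P6 shares were 72.7% against 23.4% for Slc39a1, 41.5% against 8.003% for Ccdc85c, 15.1% against 2.70% for Amt and 14.1% against 2.86% for D17H6S53E. The gap thus stood at equal depth. Actb was seen in all Stalk-labelled cells and Actg1 in 99.6% of them at P6 and in all at P15, so shares say nothing of the actins. No labelled cluster is known to lack the companions, so no background share from free RNA could be set beside these.

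The Actb level was spread over most Stalk-labelled cells. At P6 a Stalk-labelled cell gave a median of 3.27% of its UMIs to Actb, with quartiles of 1.88% and 5.20% and a range from 0.538% to 13.96%. At P15 the median was 2.56%, the quartiles 1.53% and 4.41% and the range 0.342% to 8.15%. In the other clusters the medians lay between 0.349% and 0.617% at P6 and between 0.277% and 0.683% at P15, so each was below the lower Stalk quartile. The single cell with most Actb held 2.73% of the Actb UMIs of all P6 Stalk-labelled cells. Actg1 had a median of 0.240% in Stalk-labelled and 0.266% in other P6 cells.

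A share of 2% was taken as a mark after the values were seen. At P6, 69.6% of Stalk-labelled cells (63.2 to 75.4) gave at least 2% of their UMIs to Actb, against 3.61% of other labelled cells (2.67 to 4.76). At P15 it was 62.4% (51.2 to 72.6) against 0.850% (0.176 to 2.46). Of the labelled cells over the mark, 160 of 208 at P6 and 53 of 56 at P15 were Stalk. The other 48 at P6 were 16 Proliferative, 8 Capillary, 7 Primitive, 6 Venous, 6 Cap-Arterial, 4 Tip and 1 Arterial cells, and none of 414 Cap-Venous cells. Of the P15 cells without a label 11.3% (9.55 to 13.2) were over the mark, beside 12.8% of all labelled P15 cells. Actb and the label were thus close but not the same.

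**Figure D2:**
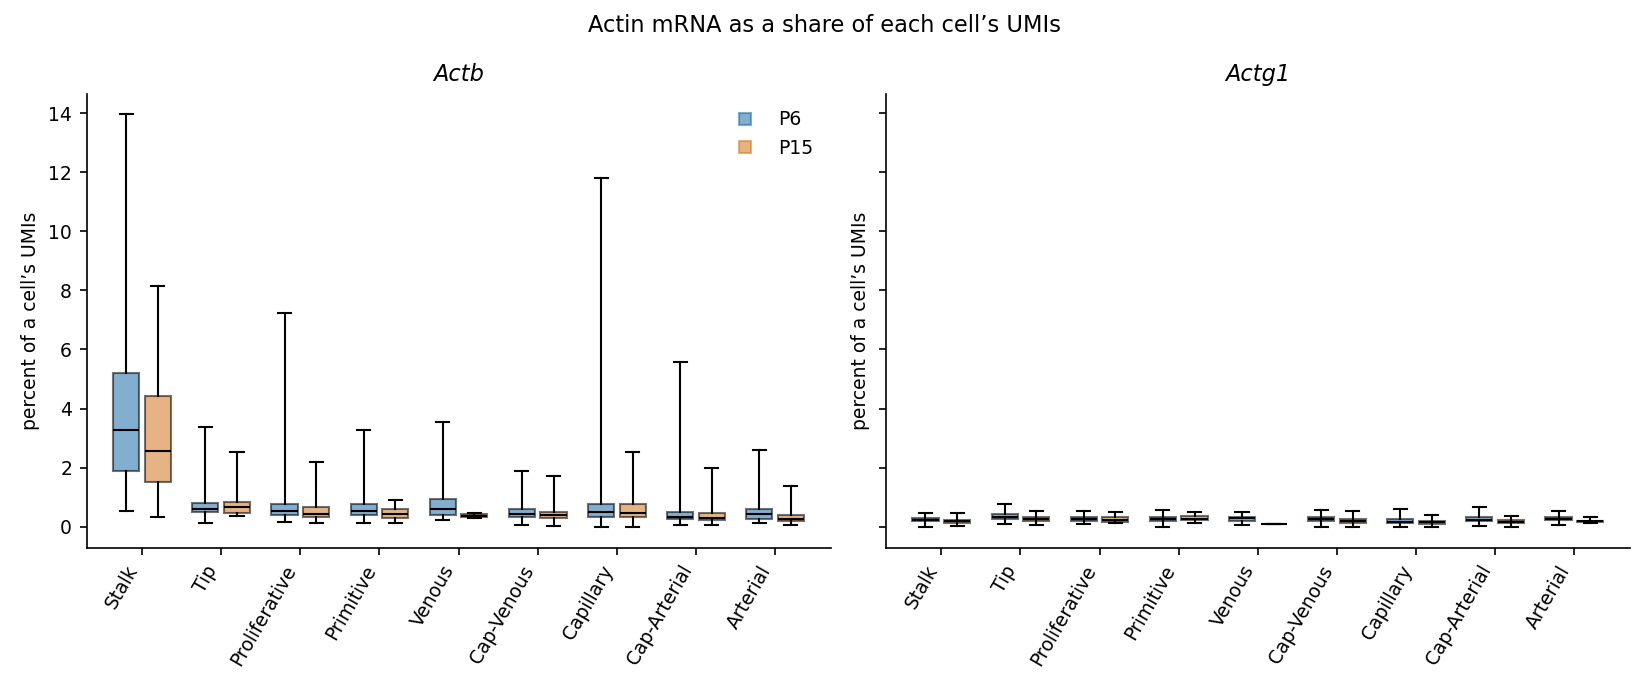
Percent of each cell's UMIs from Actb (left) and Actg1 (right) by cluster, on 1 shared linear axis; boxes show quartiles and median, whiskers the lowest and highest cell, blue P6 and orange P15. Stalk medians for Actb are 3.27% and 2.56%, while Actg1 reaches at most 0.760% in any labelled cell.

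The 2 actins were also set against each other within the same cells, a comparison that does not depend on the other UMIs. Actb gave 93.8% (93.6 to 94.0) of the UMIs of the pair in P6 Stalk-labelled cells, 15.2 Actb UMIs for each Actg1 UMI. In the other P6 clusters it gave 80.1% in Capillary, 78.4% in Venous, 77.6% in Proliferative, 71.2% in Primitive, 66.4% in Arterial, 66.3% in Cap-Arterial, 65.7% in Tip and 64.0% in Cap-Venous cells. At P15 it gave 93.0% (92.5 to 93.5) in Stalk-labelled cells, 13.3 Actb UMIs for each Actg1 UMI, and between 63.2% and 80.0% in the other clusters. All other labelled cells together had 70.7% at P6 and 68.5% at P15. The Actg1 level itself differed by less than 1.5-fold between Stalk-labelled and other labelled cells.

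Over single cells the companions followed Actb to different degrees. Pearson's r was computed on log-normalised values, the natural log of 1 plus UMIs per 10000. Cells of 1 library share its depth and free RNA and are not replicates, so each r is a description without a p. Over the 1560 labelled P6 cells r with Actb was 0.629 for Slc39a1, 0.443 for Ccdc85c, 0.287 for Amt, 0.263 for D17H6S53E and 0.0868 for Actg1. Over the 438 labelled P15 cells it was 0.613, 0.392, 0.246, 0.343 and 0.117 in the same order. Slc39a1 had the highest r with Actb of all 9833 genes at P6 and of all 5832 at P15. The median gene stood at -0.0066 and -0.0123, with 95 of 100 genes under 0.0599 and 0.0929.

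Part of that r is the cluster step itself, so it was taken within groups too. Inside the 230 P6 Stalk-labelled cells r with Actb was 0.533 for Slc39a1 and 0.497 for Ccdc85c, places 1 and 2 of 4112 genes. It was 0.135 for D17H6S53E, 0.0831 for Amt and 0.0296 for Actg1 there, all within the lower 95 of 100 genes, which ended at 0.1596. Inside the 85 P15 Stalk-labelled cells it was 0.452 for Slc39a1, place 3 of 1468, and 0.118 for Ccdc85c, 0.110 for D17H6S53E, -0.0107 for Amt and 0.0646 for Actg1. Slc39a1 thus followed Actb within Stalk-labelled cells at both ages and Ccdc85c at P6, and the 2 sparse genes had values too near the bulk of genes to read.

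Slc39a1 led outside the label at P6 as well. In the 1330 other labelled P6 cells r was 0.391 for Slc39a1, the first of 9511 genes, then 0.198 for Actg1, 0.168 for Ccdc85c, 0.1601 for Amt and 0.140 for D17H6S53E. In the 353 other labelled P15 cells r was 0.228 for Slc39a1, place 17 of 5225, and 0.241 for Actg1, place 14. The 1235 P15 cells without a label can include Stalk cells. They had 0.594 for Slc39a1, 0.468 for Ccdc85c, 0.293 for D17H6S53E, 0.189 for Amt and 0.0610 for Actg1. Abhd2, not a member, came first in these cells, at 0.606. Among the companions themselves the highest P6 values over labelled cells were 0.343 for Ccdc85c with Slc39a1 and 0.234 for each of Amt and D17H6S53E with Slc39a1. These values include the cluster step. In other labelled P6 cells the same pairs stood at 0.0884, 0.0902 and 0.0964, and inside P6 Stalk-labelled cells at 0.320, 0.123 and 0.178. Over all labelled P6 cells Actg1 with the companions lay between -0.0761 and 0.0344.

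**Figure D3:**
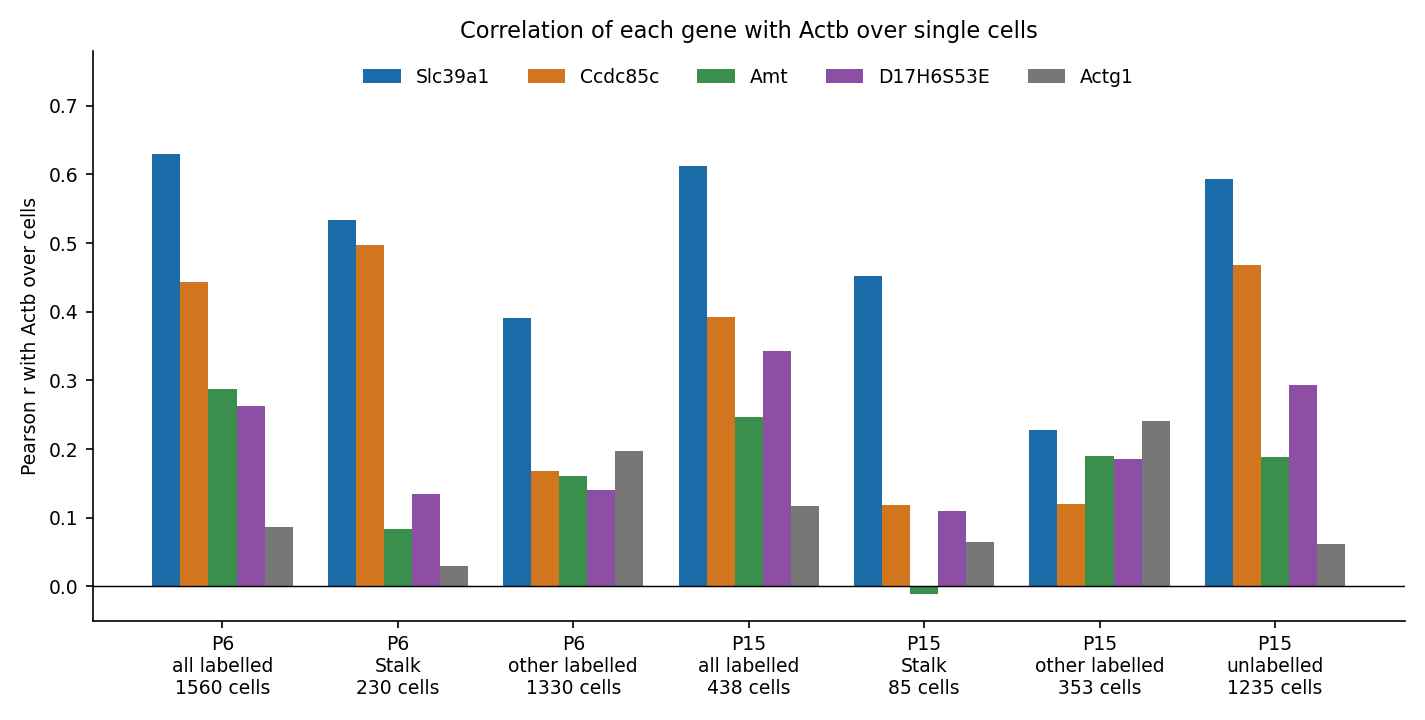
Pearson's r with Actb over single cells (vertical axis, no unit) for the 4 companions and Actg1 in 7 groups of cells, with the number of cells under each group. Slc39a1 is the tallest bar in every group but the 353 other labelled P15 cells, where it is 0.228 beside 0.241 for Actg1.

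Levels were also compared when cells were ranked by their Actb share and cut into 4 groups of near equal size, group 1 lowest, with Actb left out of the denominator. From group 1 to group 4 of P6 Stalk-labelled cells, Slc39a1 went from 260.0 (209 to 319.6) through 486.5 and 858 to 1148 (1041 to 1264) CPM. Ccdc85c went from 80.9 (53.8 to 117) through 62.0 and 200.1 to 522 (451 to 602). Slc39a1 was higher in each group than in the one before, with intervals apart, while the intervals of Ccdc85c in groups 1 and 2 overlapped. Amt stood at 52.0, 49.0, 54.6 and 123 and D17H6S53E at 23.1, 55.5, 54.6 and 126, each with group 4 above the others. Actg1 stood at 2661, 2717, 2698 and 2898, each interval overlapping the next. The 4 groups held Actb shares of 0.538% to 1.87%, 1.88% to 3.28%, 3.28% to 5.21% and 5.25% to 13.96%, with median depths of 5464.5, 4532, 5871 and 5335 UMIs.

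Inside P15 Stalk-labelled cells the 4 groups held 21 or 22 cells each. Slc39a1 stood at 347 (247 to 475), 565, 928 and 1104 (871 to 1379) from group 1 to group 4, with the ends apart. Ccdc85c stood at 89.0 (42.7 to 164), 159, 168 and 201 (109.7 to 337), and all 4 intervals overlapped. Amt stood at 35.6, 59.4, 88.8 and 14.3, lowest in group 4 with 1 UMI, and D17H6S53E at 71.2, 49.5, 49.3 and 158, from 5 to 11 UMIs a group. Of the companions Slc39a1 alone thus had group 4 apart from group 1 there.

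Among P15 cells without a label the step came at the top. Slc39a1 had 60.8, 59.0, 70.4 and 539.5 (500.3 to 581) from group 1 to group 4, and Ccdc85c 15.8, 16.5, 25.1 and 135 (116 to 157). Amt had 8.26, 2.74, 6.97 and 31.6 (22.6 to 42.8), and D17H6S53E 7.51, 6.86, 5.58 and 52.3 (40.6 to 66.3). All 4 companions were thus high in the group richest in Actb, whose shares began at 0.749%, while Actg1 had 1986, 2259, 2546 and 2312. Cells of the Stalk cluster can be in that group, so the step cannot be placed outside the cluster. In the 1330 other labelled P6 cells group 4 held 218 (199 to 240) for Slc39a1 against 57.2 (46.7 to 69.4) in group 1, and 53.6 (44.1 to 64.6) against 22.2 (15.9 to 30.3) for Ccdc85c. Actg1 was higher in group 4 there too, at 3130 (3054 to 3208) against 2423 (2352 to 2496) in group 1. In other labelled P15 cells Actg1 held 2759 (2596 to 2929) in group 4 against 1938 (1801 to 2082) in group 1.

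**Figure D4:**
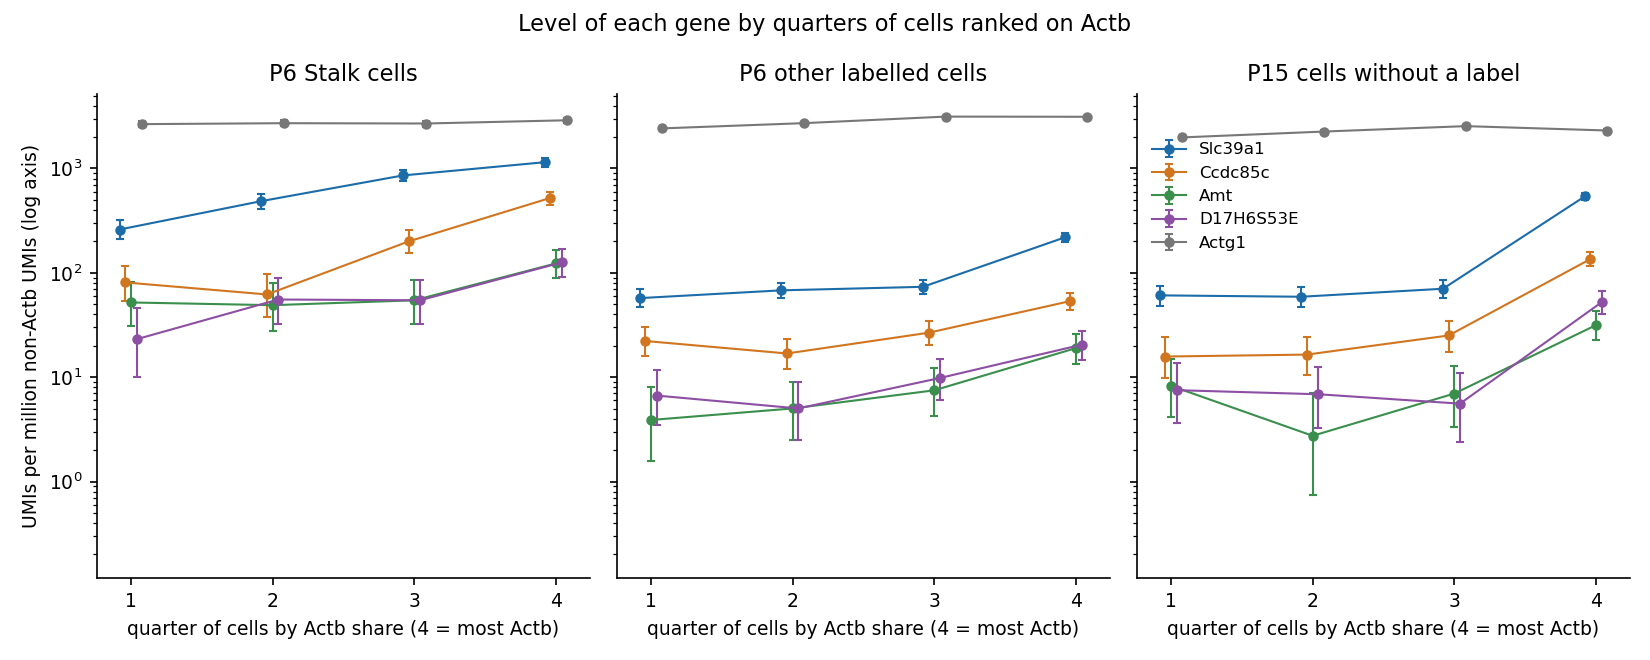
CPM without Actb (log axis) for the 4 companions and Actg1 in 4 groups of cells ranked by Actb share, in P6 Stalk cells, other labelled P6 cells and P15 cells without a label, bars giving 95% Poisson intervals. Slc39a1 goes from 260.0 to 1148 from group 1 to 4 of Stalk cells, and Actg1 from 2661 to 2898.

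Genes next to the members were examined because tags from a neighbour can be counted for a gene. Of 15 annotated genes within 10 kb of a member, 10 had at least 10 UMIs over labelled P6 cells and 0 of them were past 1.5-fold either way, beside 3.89% and 10.5% of all genes. Next to Actb, Fbxl18 had a ratio of 0.928 (0.681 to 1.24). Next to Slc39a1, Crtc2 had 1.28 (0.787 to 2.005), and next to Ccdc85c, on the opposite strand, Ccnk had 1.20 (0.7801 to 1.78). Around Amt, Nicn1 had 1.08, Tcta 0.782 and Rhoa, which encodes the small GTPase that drives stress fibre formation, 1.43 (1.32 to 1.55). Around D17H6S53E, Csnk2b had 1.03, Gpank1 0.924 and Bag6 0.842, and next to Actg1, 0610009L18Rik had 0.978. The 3 genes that overlap a member on the map held 6 UMIs in all over labelled P6 cells. Rhoa alone had an interval above 1 at P6 among them. At P15 Nicn1 (0.552, 0.106 to 1.82, 3 UMIs against 24) and Tcta (0.573, 0.264 to 1.11, 10 UMIs against 77), both beside Amt, were past 1.5-fold lower, and Rhoa had 1.42 (1.22 to 1.66).

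Genes of the actin machinery were counted from lists. Of 103 genes from 6 lists (among them actin isoforms, assembly factors, stress fibre and adhesion genes, SRF with its cofactors and targets, and actin folding) with at least 50 UMIs at P6, 3 were past 1.5-fold higher, Actb among them, and 2 lower, beside 3.89% and 10.5% of all genes. The median log2 ratio was -0.10, the same as over all genes. At P15 it was 8 of 97 higher, Actb among them, and 2 lower, beside 5.28% and 9.5% of all genes, with a median of -0.06. Without Actb, which was chosen for its high level, 2 of 102 were higher at P6 and 7 of 96 at P15. At a 2-fold limit 1.39% of all genes were higher and 3.93% lower at P6, and 1.8% and 2.43% at P15. Of these lists 1 gene, Actb itself, was higher and 1 lower at P6, and 4 were higher at P15, Actb among them. Without Actb 0 of 102 were past 2-fold higher at P6 and 3 of 96 at P15. Beside Actb, the P6 genes past 1.5-fold were Mrtfb, a cofactor of SRF (1.89, 1.69 to 2.12), Myh9, the heavy chain of non-muscle myosin (1.55, 1.35 to 1.78), Diaph2, a formin (0.514, 0.259 to 0.927), and Ccn2, a matricellular target of SRF and YAP (0.419, 0.164 to 0.896). Mrtfb and Myh9 were higher at P15 as well, at 2.14 (1.87 to 2.45) and 2.02 (1.60 to 2.55), and Ccn2 was 2.01 (1.40 to 2.87) there, opposite to P6. Srf itself had 1.32 (0.918 to 1.86) and 1.81 (0.982 to 3.19), both with intervals that include 1. Actr2, a subunit of the Arp2/3 complex, had 1.44 (1.29 to 1.61) and 1.95 (1.52 to 2.48). The rest of the P15 genes past 1.5-fold were Pfdn4, of the prefoldin chaperone (1.60), and Nckap1, of the WAVE complex (1.55), both under 1 at P6, and the lower Ezr, which links actin to the membrane (0.597, 0.275 to 1.16), and Capza1, of the capping protein (0.607, 0.291 to 1.15). Of the other actin isoforms, Acta1 had no UMI in any labelled P6 cell. Acta2 had 0 UMIs in Stalk-labelled and 3 in other labelled P6 cells, and Actc1 had 1 and 0, too few to compare.

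Partners of the companions were counted from lists as well. In the glycine cleavage system, Amt stood beside Gcsh with a P6 ratio of 1.14 (0.940 to 1.38), Dld with 0.745 (0.577 to 0.9497) and Gldc, the decarboxylase, with 0 UMIs in Stalk-labelled and 2 in other cells. At P15 Dld was past 1.5-fold lower (0.533, 0.283 to 0.931). Of 13 zinc transport genes with at least 50 UMIs at P6, Slc39a1, chosen for its high level, was past 1.5-fold higher. Mt1, a metallothionein, was past 1.5-fold lower, with 1 UMI against 71. Over all genes 3.89% were higher and 10.5% lower at P6. The other 11 lay between 0.723 and 1.10. Mt1 had 9 UMIs against 27 at P15, a ratio of 1.47 (0.609 to 3.22). Mtf1, a transcription factor that senses zinc, had 0.811 (0.488 to 1.28) at P6 and 2.56 (1.35 to 4.73) at P15, there from 18 and 31 UMIs and so under the minimum of 50. Of the CCDC85 family and the junction genes, Ccdc85a had 1.26 (0.879 to 1.76) at P6 and 2.21 (1.28 to 3.72) at P15, and Ccdc85b had 0.975 and 1.05. Cdh5, Ctnna1, Ctnnb1 and Ctnnd1, of the endothelial adherens junction, lay between 0.864 and 0.982 at P6.

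Other genes with a large Stalk ratio were listed by size among the 5871 genes with at least 200 UMIs at P6. Ccdc85c, Slc39a1 and Actb held the first 3 places. The other 17 of the first 20 ran from 5.60 to 3.56, with Gatad1 at 3.50 and Kdelr2 at 3.44 just outside. They included Insig1, which holds back cholesterol synthesis (5.60), Abhd2, a lipid hydrolase (5.46), Ttyh2 (4.91), Clasp2, a microtubule plus-end protein (4.48), Itpripl1 (4.41), Pam, a peptide-amidating enzyme (4.34), Cdkn1b, the cell cycle inhibitor p27 (4.23), and Lrrc8a, a subunit of the volume-regulated anion channel (4.14). After them came Gm32036, Acot2, 4933415A04Rik, Marf1, Pim1, Hsf2, Alkbh5, Wtap and Nfia. All 17 were also higher in P15 Stalk-labelled cells, by 2.43-fold to 6.33-fold, and all 17 intervals there lay above 1. Of all genes 5.28% were past 1.5-fold higher at P15. The study joined both ages before it made the clusters, so the P15 values are not an independent check of the P6 list. The r of these 17 with Actb inside P6 Stalk-labelled cells ran from -0.126 for Marf1 to 0.439 for Pam, with a median of 0.187. Slc39a1 and Ccdc85c, at 0.533 and 0.497, were above all 17, as was Kdelr2 at 0.494. Inside P15 Stalk-labelled cells the order differed. Abhd2 (0.553) and Pam (0.473) were above Slc39a1 (0.452) there, and Ccdc85c (0.118) was below Clasp2 (0.393), Alkbh5 (0.367), Cdkn1b (0.3302), Nfia (0.259) and Ttyh2 (0.237), among others.

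**Figure D5:**
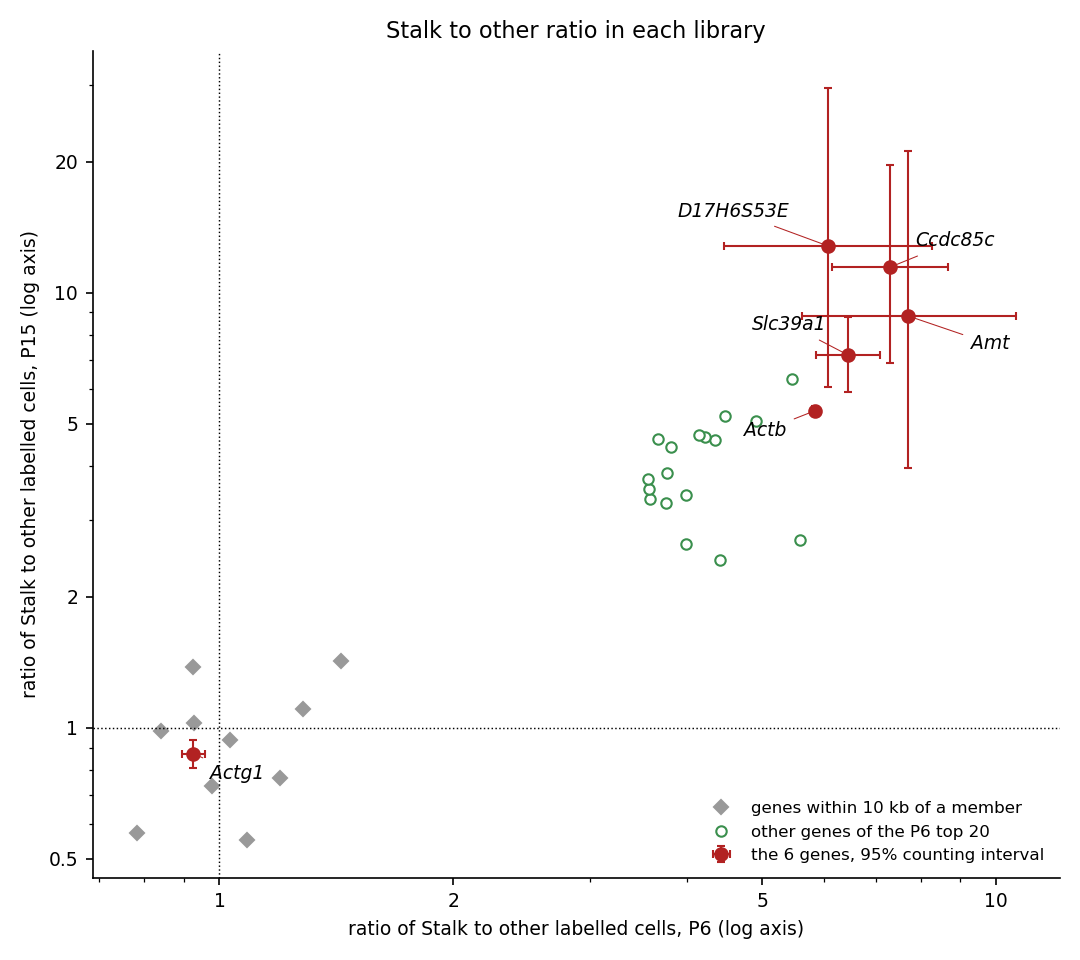
Ratio of Stalk to other labelled cells at P6 (horizontal) against P15 (vertical), both log axes, for the 6 genes with 95% counting intervals (red), the other genes of the P6 first 20 (open green) and genes within 10 kb (grey). Actb and the companions lie between 5.35 and 12.8 on both axes, and Actg1 and the neighbouring genes lie between 0.552 and 1.43.

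The genes whose levels over the 9 P6 clusters were most like Actb were found by Pearson's r of log2(CPM + 1) among 5870 genes. Kdelr2, a receptor that returns proteins to the endoplasmic reticulum, came first (0.967), then Ccdc85c (0.914), Slc39a1 (0.896), Mtmr2 (0.889), St13 (0.885), Itpripl1 (0.884), Gatad1 (0.884), Myef2 (0.854), Pdzd8 (0.854) and Zfp691 (0.852). Over the 8 P15 clusters with at least 10 labelled cells Kdelr2 stood at 0.931, Ccdc85c at 0.739 and Slc39a1 at 0.674. Actg1 was -0.112, at place 3707, beside a median of -0.0263. The P6 values rest on 9 points and the P15 values on 8, and Stalk lies far above the others for Actb at both ages.

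Levels at the 2 ages were set side by side. Over labelled cells Actb was 0.796 times (0.785 to 0.809) as high at P15 as at P6, and Actg1 0.824 times (0.800 to 0.850). Inside Stalk-labelled cells Actb stood at 0.690 (0.676 to 0.704), Actg1 at 0.787 (0.729 to 0.849) and Ccdc85c at 0.666 (0.493 to 0.886). Slc39a1 stood at 1.01 (0.876 to 1.15), D17H6S53E at 1.16 (0.734 to 1.78) and Amt at 0.740 (0.433 to 1.21) there, and these 3 intervals include 1. In both libraries the mitochondrial share of Stalk-labelled and other cells was close, 1.18% against 1.28% at P6 and 1.03% against 1.06% at P15, and the ribosomal protein share was 18.0% against 18.4% and 9.64% against 10.8%. Of 11 genes of the response to tissue dissociation with at least 50 UMIs at P6, 1 was past 1.5-fold higher, Atf3 (1.63, 1.07 to 2.41), and 0 were lower, beside 3.89% and 10.5% of all genes. At P15 0 of 10 were higher and 1 lower, beside 5.28% and 9.5%.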

How the data were processed

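Retinal endothelial cells from 1 library per age, P6 and P15, were analysed. The deposited tables held raw UMI counts per gene and cell made by the authors, with no normalization. The submitters' processing notes named Seurat 3.0 and the mm10 build, and the aligner and annotation were not given in the sources used here. Symbols were found for 22695 of 22734 Ensembl identifiers at P6 and 21745 of 21785 at P15, identifiers of the same symbol were added, and positions came from GENCODE M21. Cluster labels came from the study's source data, in which the clusters called Primitive and Proliferative here carry other spellings. The study made the clusters on both ages joined, so a label at 1 age is not independent of values at the other. P15 labels were held for 438 of 2141 barcodes, all among the first 539 in alphabetical order.

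UMIs were summed over the cells of each group and divided by all UMIs of those cells. Levels carry exact Poisson intervals, ratios conditional binomial intervals and shares Clopper-Pearson intervals, all at 95% and for counting error only. No test was run, since each age had 1 library. The limit for a count of 0 was 3 counts. Genes entered comparisons over all genes with at least 50 UMIs over labelled cells and counted as higher or lower at 1.5-fold. Genes other than members were named as the 20 largest P6 ratios among genes with at least 200 UMIs, the next 2 outside, the 10 genes most like Actb over clusters, and genes of the lists. Members and lists were chosen with earlier results of these data known. Thinning took 3000 UMIs from each cell. The cell filter, an alternative for labelled cells, kept cells with 200 to 3500 genes detected and up to 5% of UMIs from mitochondrial genes in which Hbb-bt, Neurod1 and Cd63 were all at 0. Doublets were not called. The sum of 1 further marker list is not reported here. As an alternative, cells with UMIs of both Xist and Y-linked genes and the 5% of cells with most UMIs were left out. Other alternatives were a denominator without mitochondrial, ribosomal and Actb UMIs, the mean per cell, other comparison clusters, Spearman's rank correlation, values centred on each cluster, a 2-fold limit, no UMI minimum and leaving out the top cell. Counting steps were tested on simulated data. Python 3.11.15 was used with numpy 2.4.6, scipy 1.17.1, pandas 2.3.3 and matplotlib 3.10.9.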

Additional observations from a re-analysis of the deposited data

How the results depend on the processing

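No paired analysis was possible because each age had 1 library, and no library could be left out. Of the other settings chosen at the outset, 105 stayed within their counting interval or limit and 37 moved out of it. Of those chosen after seeing the data, 20 stayed, 12 moved and 2 turned the direction. A change of r counted as a move from 0.1 upwards. The causes were not tested, apart from the fewer cells or UMIs that a setting leaves by construction.

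For Actb the ratio of Stalk-labelled to other labelled cells at P6 was 6.00 in cells passing the filter, 6.06 with the denominator without mitochondrial, ribosomal and Actb UMIs, 5.53 without doublet candidates and the deepest cells, 5.75 without the top Stalk-labelled cell, 5.62 against Tip and 4.96 against Capillary. At P15 it was 5.72 with the filter, 5.77 as a mean per cell, 5.58 without doublet candidates, 3.52 against Tip and 4.75 against Capillary. For Actg1 it was 0.887 thinned, 0.960 with the other denominator and 0.708 against Tip at P6, and 0.686 against Tip at P15, and it turned to 1.31 and 1.26 against Capillary. Slc39a1 had 7.22 against Tip and 4.61 against Capillary at P6, and 4.76 against Capillary at P15. Ccdc85c had 5.85 against Tip at P15 and D17H6S53E 3.94 at P6. Amt and D17H6S53E gave no ratio against Capillary at P15, where both were at 0.

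Pearson's r with Actb at P6, centred on each cluster, was 0.425 for Slc39a1, 0.250 for Ccdc85c, 0.127 for Amt and 0.124 for D17H6S53E. At P15 it was 0.315, 0.0943, 0.103 and 0.128. Spearman's rank correlation was 0.481 for Slc39a1 and 0.302 for Ccdc85c at P6 and 0.495 for Slc39a1 at P15, and r for Ccdc85c at P15 was 0.247 after thinning. The share of Stalk-labelled cells with a UMI after thinning was 72.7% for Slc39a1, 41.5% for Ccdc85c, 15.1% for Amt, 14.1% for D17H6S53E and 100% for Actg1 at P6, and 24.2% for Ccdc85c and 12.9% for D17H6S53E at P15. The Actb share of the pair in filtered cells was 70.0% in other P6 cells and 93.5% in P15 Stalk-labelled cells. At 2-fold, 1 actin gene, Actb itself, was higher and 1 lower at P6, and 4, Actb among them, were higher and 0 lower at P15. With no UMI minimum 6 were lower at P15. In filtered cells 6 of the 10 genes most like Actb were the same. Over all barcodes the ratio of P15 to P6 was 0.738 for Actb and 0.947 for Slc39a1.

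Depth limited Amt and D17H6S53E most, with 30 and 39 UMIs over labelled P15 cells. The P15 Venous cluster held only 2 labelled cells. Age and library cannot be told apart.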
